A study of Mus musculus with 10 samples.

Results

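The genes of the EGF receptor family and its ligands were read from RNA of intestinal epithelial cells (IECs), which were released from the colon with EDTA. The set was chosen by gene name and role, with earlier results of these data known. It holds 10 genes, which are 3 receptors (Egfr, Erbb2 and Erbb3), 5 ligands (Areg, Ereg, Hbegf, Tgfa and Btc) and 2 inhibitors of the receptors (Lrig1 and Errfi1). All 10 were among the 55487 genes of the table, and all 10 passed the filter on low values that left 12870 genes for the test. Both groups were of the C57BL/6J strain. The WT group was 5 wild type mice, and the methods describe wild type mice as purchased males. The RhoB-/- group was 5 mice labelled as homozygous knockouts, which per the methods were made at another centre. Mice were 6 to 8 weeks old unless the methods said otherwise, the sex of the RhoB-/- mice and any shared litter were not given in the sources used here, and no treatment was named in the labels. The paper names WT littermates for its chronic colitis experiment and does not say where the sequenced WT mice came from. If these were purchased, the source of the mice and the genotype cannot be told apart.

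The EGF receptor family is a set of receptor tyrosine kinases that drive epithelial growth and repair. Their ligands are made as membrane-bound precursors, which proteases such as ADAM17 cut to release the active growth factor. In the colon the pathway keeps crypt cells dividing, and feedback inhibitors limit it. RhoB itself is a small GTPase of endosomes, known for a part in the traffic of internalised EGF receptor, and the comparison asks how the mRNA levels of the family differ without it.

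Levels are given as TPM, a share of all transcripts in a library that corrects for gene length and is relative to that library, so levels of different genes may be compared. TPM keeps no sequencing depth, so the counting error of a value is unknown. The libraries held 20261 to 21344 genes above 0 TPM, and mitochondrial genes took 10.3% to 26.5% of the TPM. The epithelial markers Epcam (969 to 1639 TPM over the 10 libraries) and Krt8 (3938 to 6128 TPM) were high throughout, and of the 3 endothelial markers Cdh5 was at 0 to 0.03 TPM, Kdr at 0 to 0.13 TPM and Pecam1 at 0.65 to 1.28 TPM. Rhob had 170.5 to 388.7 TPM in the WT libraries and 0.09, 0.10, 0.35 and 0.57 TPM in RhoB-/- replicates 1 to 4. The library labelled RhoB-/- replicate 5 had 110.9 TPM of Rhob, below all WT libraries but far above the other RhoB-/- libraries. That level differs from what its label would lead one to expect. The label was kept, and the genotype of this mouse could not be checked here. Calls of the family and the pathway lists that were lost without this library are named. Marker calls are from all 10 libraries and were not checked without it.

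Of the 10 genes, 2 ligands were higher and 1 inhibitor was lower in RhoB-/- than in WT mice at an adjusted p below 0.05 (limma on log2(TPM + 1), Benjamini-Hochberg adjustment over all tested genes). The ligands were Ereg (epiregulin) and Tgfa (transforming growth factor alpha), and the inhibitor was Lrig1. By the same rule 21.2% of all tested genes were called, 7.73% as higher and 13.5% as lower, so 3 of 10 was not far from the background. Complete separation of WT and RhoB-/- libraries was seen for 2 members, Tgfa (higher) and Lrig1 (lower), against 14.5% of all tested genes (5.97% higher and 8.55% lower). By the thresholds used in the paper, an unadjusted p below 0.05 with more than a 1.5-fold change, Ereg was higher and Lrig1 lower, against 14.7% of all tested genes (6.37% higher and 8.33% lower). The median log2 fold change was 0.37 over the 10 genes and -0.13 over all tested genes. When libraries were centred on their median deviation, the calls over all genes went from 995 higher and 1734 lower to 2010 higher and 1645 lower, and those of the family to 4 higher and 1 lower, with Erbb2 and Erbb3 added. Without the library labelled RhoB-/- replicate 5, 1 member was called higher (Ereg) and 1 lower (Lrig1), against 728 higher and 1092 lower over all genes. The 7 members with no call had none without it either, with log2 fold changes of -0.21 for Egfr, 0.30 for Erbb2, 0.28 for Erbb3, 0.67 for Areg, 0.47 for Hbegf, 0.08 for Btc and 0.10 for Errfi1.

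**Figure D1:**
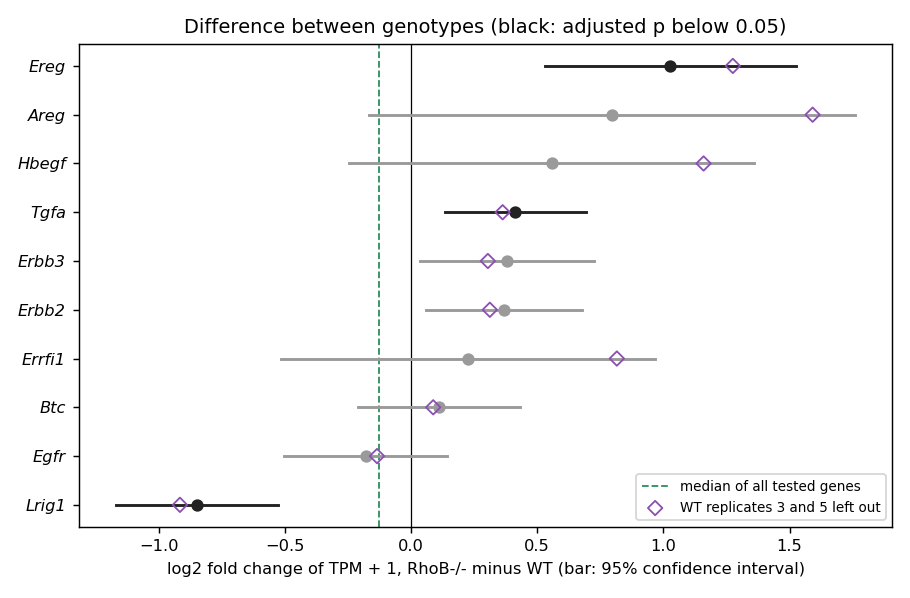
Log2 fold change of TPM + 1, RhoB-/- minus WT, of the 10 genes, with the 95% confidence interval from limma. Black marks an adjusted p below 0.05, the dashed line is the median of all tested genes (-0.13), and open diamonds are the fit without WT replicates 3 and 5. Ereg and Tgfa lie to the right of 0 and Lrig1 to the left, and the diamonds of Areg, Hbegf and Errfi1 lie well to the right of their filled points.

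In both genotypes the order of the mean levels was the same, from Areg through Hbegf, Errfi1, Erbb3, Erbb2, Lrig1, Tgfa, Egfr and Ereg to Btc. In WT libraries the values of each gene overlapped those of the next, except between Lrig1 and Tgfa and between Egfr and Ereg. In RhoB-/- libraries they were separate between Erbb2 and Lrig1, Tgfa and Egfr, and Ereg and Btc. Lrig1 was above Tgfa in 5 of 5 WT libraries and in 3 of 5 RhoB-/- libraries. Areg and Hbegf together made up 89.9% to 97.7% of the summed TPM of the 5 ligands in every library. The ligand sum was 131.5, 172.2, 540.1, 205.4 and 558.8 TPM in WT replicates 1 to 5 and 431.7, 279.3, 478.8, 450.1 and 588.9 TPM in RhoB-/- replicates 1 to 5. WT replicates 3 and 5 thus had ligand sums within the RhoB-/- range, and the other 3 WT libraries were below it.

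**Figure D2:**
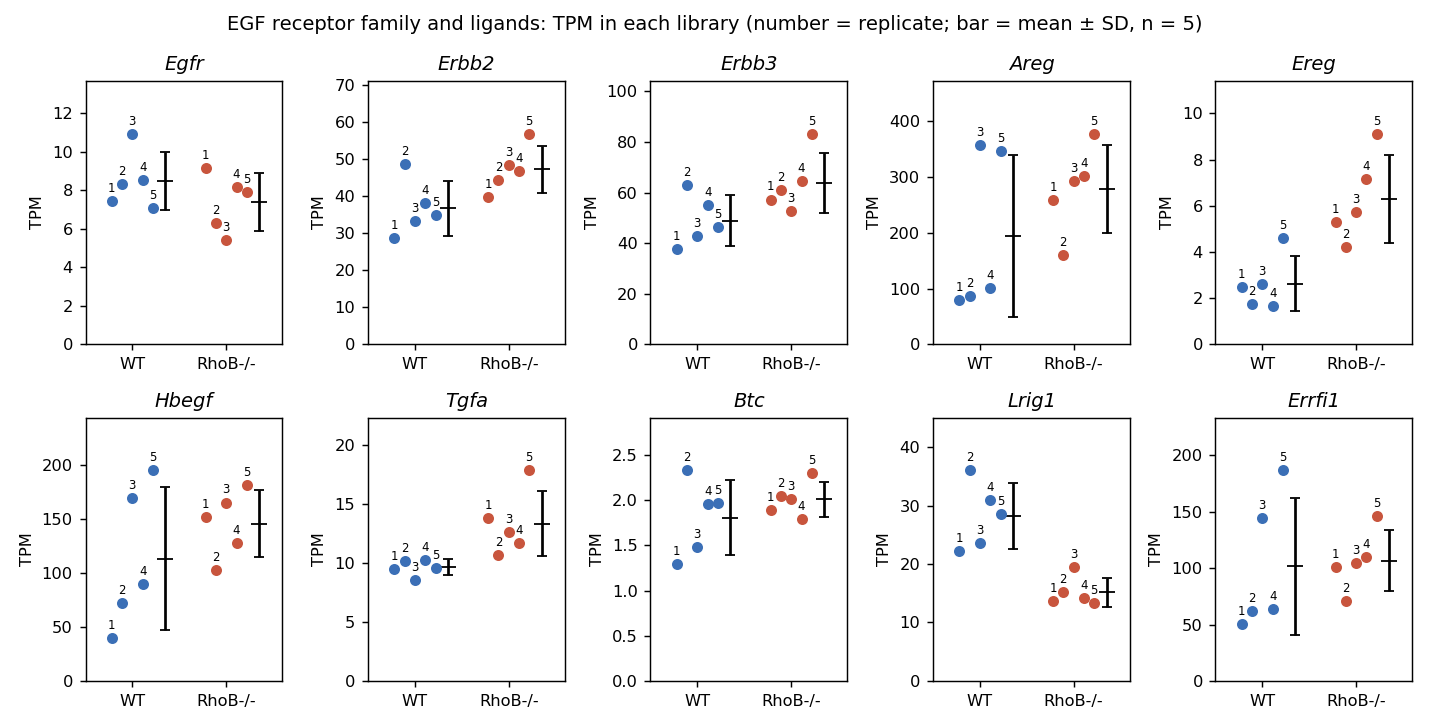
TPM of each of the 10 genes in each library, on linear axes that start at 0, with WT in blue and RhoB-/- in red. Numbers are the replicates, and the bar beside each group is the mean and SD (n = 5). For Areg, Hbegf and Errfi1, WT replicates 3 and 5 lie far above the other WT libraries, whereas both groups are apart for Tgfa and Lrig1.

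Among the receptors, Egfr, which binds EGF and the ligands of this set, had the lowest level. Its TPM was 7.45, 8.31, 10.9, 8.55 and 7.09 in WT replicates 1 to 5 and 9.14, 6.30, 5.43, 8.18 and 7.90 in RhoB-/- replicates 1 to 5. The groups overlapped, with 2 RhoB-/- libraries below all WT libraries. Its log2 fold change was -0.18 (standard error 0.15, adjusted p = 0.406, limma), with a 95% confidence interval of -0.50 to 0.14. Egfr made up 6.94% to 12.6% of the summed TPM of the 3 receptors in WT and 5.10% to 8.61% in RhoB-/- libraries.

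Erbb2, a receptor with no known ligand that serves as the partner of the others, had 28.7, 48.6, 33.2, 38.1 and 34.9 TPM in WT and 39.8, 44.4, 48.4, 46.9 and 56.9 TPM in RhoB-/- replicates 1 to 5. WT replicate 2 was within the RhoB-/- range, and the other WT libraries were below it. The log2 fold change was 0.37 (standard error 0.14, unadjusted p = 0.0237, adjusted p = 0.0836, limma), with an interval of 0.06 to 0.68. Of 10 fits lacking a single library, 1 called Erbb2, that without WT replicate 2 (log2 fold change 0.47, adjusted p = 0.0298, limma). This replicate had the highest WT value, so its removal enlarges the difference by construction. The adjusted p was 0.159 without WT replicate 1 and 0.175, the highest of the 10, without RhoB-/- replicate 5 (limma).
Erbb3, a receptor with little kinase activity of its own that binds neuregulins, had 37.8, 62.9, 42.7, 54.9 and 46.2 TPM in WT and 57.2, 60.8, 52.6, 64.5 and 83.3 TPM in RhoB-/- replicates 1 to 5. The groups overlapped, with 2 RhoB-/- libraries above all WT libraries. Its log2 fold change was 0.38 (standard error 0.16, unadjusted p = 0.0331, adjusted p = 0.104, limma). Neither receptor passed the adjusted threshold, and both did after median centring of the libraries (adjusted p = 0.00514 for Erbb2 and 0.0183 for Erbb3, limma).

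The ligands Areg, Ereg and Btc lie close together on chromosome 5 of GRCm38. Ereg (ENSMUSG00000029377) runs from 91074622 to 91093646 and Areg (ENSMUSG00000029378) from 91139599 to 91148432 on the plus strand, and Btc from 91357261 to 91402994 on the minus strand. Epgn, the gene of a further ligand, epigen, lies beside Ereg from 91027464 to 91035215. Of these neighbours, Ereg was called higher, Areg and Btc had positive log2 fold changes that did not pass the test, and Epgn was below the filter. Differences between these genes were not tested.

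Ereg, which binds Egfr and Erbb4, was a low-level gene. Its TPM was 2.48, 1.76, 2.62, 1.64 and 4.61 in WT replicates 1 to 5 and 5.31, 4.19, 5.72, 7.15 and 9.12 in RhoB-/- replicates 1 to 5. RhoB-/- replicate 2 was below WT replicate 5, and the other 4 RhoB-/- libraries were above all WT libraries. The mean rose from 2.62 ± 1.19 TPM (SD, n = 5) in WT to 6.30 ± 1.90 TPM (SD, n = 5) in RhoB-/- mice, 2.40 times the WT mean. On the log2(TPM + 1) scale the difference was 1.03 (standard error 0.23, adjusted p = 0.0093, limma). Ereg was called in each of the 18 alternative fits that tested it (adjusted p from 0.00358 to 0.0328, limma).

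Tgfa, a classical ligand of Egfr made by epithelial cells, had 9.51, 10.2, 8.59, 10.3 and 9.55 TPM in WT and 13.8, 10.7, 12.7, 11.7 and 17.9 TPM in RhoB-/- replicates 1 to 5. Every RhoB-/- library was above every WT library, but the lowest RhoB-/- library exceeded the highest WT library only narrowly (10.67 against 10.28 TPM). The WT libraries were close together, with a coefficient of variation (SD over mean) of 7.04%, against 20.9% in RhoB-/- libraries. The log2 fold change was 0.41 (standard error 0.13, adjusted p = 0.0388, limma), and the mean was 1.38 times the WT mean. This call was near its threshold. In the 10 fits that each left out 1 library, the adjusted p was 0.0244 to 0.0893 (limma) and stayed below 0.05 only without RhoB-/- replicate 2 or 3. Without the library labelled RhoB-/- replicate 5, the log2 fold change was 0.31 (adjusted p = 0.0682, limma).

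Areg (amphiregulin) had the highest level of the 10 genes and the widest spread in WT mice. Its TPM was 78.7, 85.9, 357.8, 101.7 and 347.2 in WT replicates 1 to 5 and 258.9, 159.5, 292.9, 301.7 and 378.1 in RhoB-/- replicates 1 to 5. WT replicates 3 and 5 were above 4 of the 5 RhoB-/- libraries, whereas WT replicates 1, 2 and 4 were below all 5. The coefficient of variation was 74.5% in WT and 28.5% in RhoB-/- libraries. Over all 10 libraries the log2 fold change was 0.80 (standard error 0.44, adjusted p = 0.211, limma), with an interval of -0.17 to 1.76. Hbegf, the heparin-binding ligand, had 39.6, 72.0, 169.6, 89.8 and 195.4 TPM in WT and 151.8, 102.9, 165.6, 127.7 and 181.5 TPM in RhoB-/- replicates 1 to 5. It showed the same 2 WT libraries above the other 3, and its log2 fold change was 0.56 (standard error 0.37, adjusted p = 0.294, limma). Neither difference was larger than the spread between WT mice.

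Btc (betacellulin) was the lowest of the 10, with 1.29 to 2.33 TPM in WT (median 1.96) and 1.79 to 2.30 TPM in RhoB-/- libraries (median 2.01). All RhoB-/- values lay within the WT range. Its log2 fold change was 0.11 (standard error 0.15, adjusted p = 0.612, limma), with an interval of -0.21 to 0.43.

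Lrig1 (ENSMUSG00000030029, chromosome 6, 94604529 to 94700158, minus strand) encodes a transmembrane protein that restrains EGF receptors and marks stem cells of the crypt. It showed the clearest difference of the 10. Its TPM was 22.2, 36.0, 23.5, 30.9 and 28.5 in WT replicates 1 to 5 and 13.6, 15.2, 19.4, 14.1 and 13.3 in RhoB-/- replicates 1 to 5. Every RhoB-/- library was below every WT library. The mean fell from 28.2 ± 5.63 TPM (SD, n = 5) to 15.1 ± 2.52 TPM (SD, n = 5), 0.536 times the WT mean. The log2 fold change was -0.85 (standard error 0.15, adjusted p = 0.00243, limma), and Lrig1 was called in each of 19 alternative fits (adjusted p from 5.55e-04 to 0.0118). Of 9 crypt base markers, 4 were also lower (Sox9, Smoc2, Ephb2 and Ephb3), 0 were higher and 5 did not pass, Lgr5 among them (1.20 to 2.47 TPM in WT and 0.93 to 1.75 TPM in RhoB-/- libraries). The summed TPM of these markers was 88.7 to 130.9 in WT and 63.6 to 96.0 in RhoB-/- libraries. Of 6 surface colonocyte markers, 3 were higher (Krt20, Car4 and Aqp8) and 0 lower, with sums of 3564 to 5397 TPM in WT and 4606 to 8133 TPM in RhoB-/- libraries. Of 12 epithelial markers, 3 were higher (Vil1, Cdx2 and Krt20) and 0 lower. Over all tested genes, 7.73% were called higher and 13.5% lower. The part of the cell mixture in the Lrig1 value was not tested, and in bulk RNA fewer cells of a type and less RNA per cell cannot be told apart.

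Errfi1, a cytosolic feedback inhibitor that binds the kinase domain of the receptors, had 50.5, 62.2, 144.7, 63.9 and 186.7 TPM in WT and 101.2, 70.6, 104.9, 110.2 and 145.9 TPM in RhoB-/- replicates 1 to 5. Like Areg and Hbegf, it was high in WT replicates 3 and 5. Its log2 fold change was 0.23 (standard error 0.34, adjusted p = 0.657, limma), with an interval of -0.52 to 0.97. The 2 inhibitors thus had different results, Lrig1 with a call and Errfi1 without one, and the difference between them was not tested.

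WT replicates 3 and 5 stood apart from the other WT libraries in genes that ERK signalling is known to induce. Fos, an immediate-early transcription factor, had 1392 and 1458 TPM in these 2 libraries, 449 to 918 TPM in the other 3 WT libraries and 806 to 1216 TPM in RhoB-/- libraries. Egr1, another immediate-early factor, had 441.5 and 518.4 TPM against 107.8 to 221.2 TPM in the other WT libraries and 175.3 to 319.9 TPM in RhoB-/- libraries. Both libraries were above the other 3 WT libraries for 9 of 13 ERK target genes and for 4 of the 10 family genes (Areg, Ereg, Hbegf and Errfi1), against 8.24% of all tested genes. Both were below the other 3 for 2 of the 13 (Ccnd1 and Etv4) and for 0 of the 10, against 21.2% of all tested genes. The 2 libraries were singled out after the values were seen, so these counts describe the pattern and do not test it. For Areg the mean of the 2 was 3.97 times that of the other 3, for Errfi1 2.81 times and for Hbegf 2.72 times. The RhoB-/- libraries were above WT replicates 1, 2 and 4 in 5 of 5 cases for each of these 3 genes. Among the 9 ERK target genes that were high in WT replicates 3 and 5, this number was 5 for Epha2, 4 for Fos, Dusp5, Dusp6 and Ier3, 3 for Egr1, 2 for Phlda1 and 0 for Dusp4 and Fosl1.
With WT replicates 3 and 5 left out, a choice made after the values were seen, the log2 differences were 1.59 for Areg (adjusted p = 0.00486), 1.16 for Hbegf (adjusted p = 0.0238) and 0.82 for Errfi1 (adjusted p = 0.0315, all limma). Leaving out the libraries with the highest WT values enlarges these differences by construction. Leaving out WT replicate 1, which had the lowest value of all 3 genes, had the opposite effect, with log2 fold changes of 0.56 for Areg, 0.24 for Hbegf and 0.03 for Errfi1 (adjusted p = 0.386, 0.575 and 0.961, limma). In the fit without WT replicates 3 and 5, Ereg (1.28) and Lrig1 (-0.92) were still called, and Tgfa (0.36) had an adjusted p of 0.138 (limma).

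**Figure D3:**
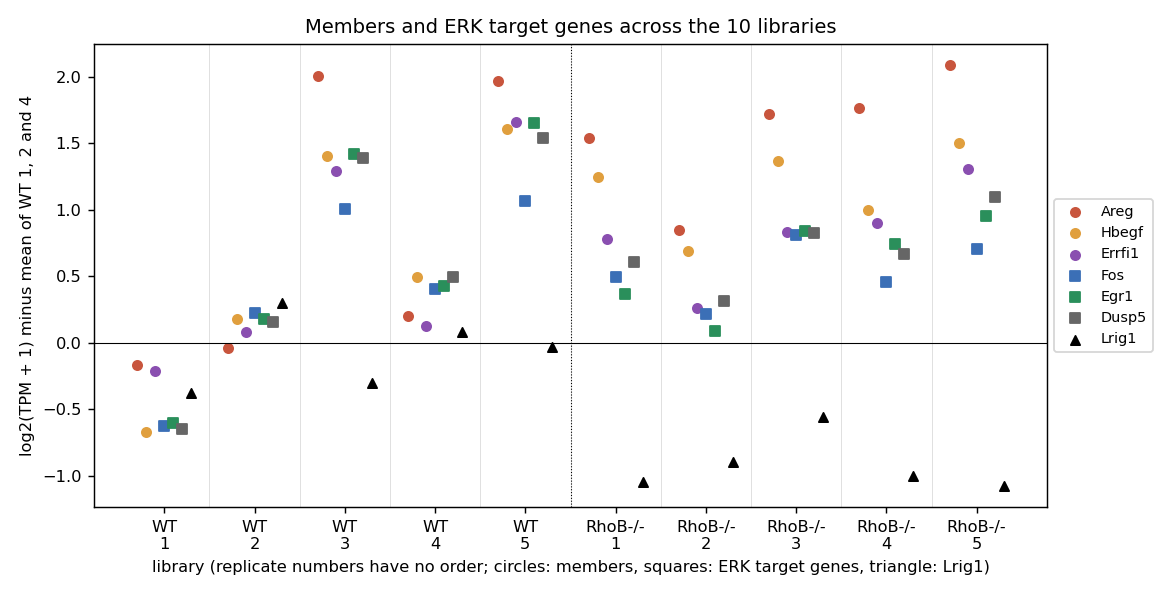
Log2(TPM + 1) of 4 family genes (circles for Areg, Hbegf and Errfi1, triangles for Lrig1) and 3 ERK target genes (squares) in each library, minus the mean of WT replicates 1, 2 and 4. Areg, Hbegf, Errfi1, Fos, Egr1 and Dusp5 are all about 1 or more in WT replicates 3 and 5, and Lrig1 is below all WT libraries in each RhoB-/- library.

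The promoters of Areg and Errfi1, chosen after their values were seen, are shown because both genes share this pattern and a motif. RefSeq promoter windows on GRCm38.p6 were matched by symbol for 7 of the 10 genes, and none was matched for Erbb3, Ereg and Hbegf. In the 250 bases before each start, 3 motifs were searched on both strands, the cyclic AMP response element (TGACGTCA), the AP-1 site (TGANTCA) and the CArG box of serum response factor. The first was found once for Areg, 61 bases before the start, and once in 1 of the 2 windows of Errfi1, 51 bases before the start. It was present in 1.55% of all 32851 windows of this length. The AP-1 site (6.75% of windows) and the CArG box (1.47%) were found in none of the 8 windows of the family. The 150 bases before the start are given on the plus strand, for Areg from chr5:91139449-91139598 and for Errfi1 from chr4:150854920-150855069, with the response element in capitals.
Areg: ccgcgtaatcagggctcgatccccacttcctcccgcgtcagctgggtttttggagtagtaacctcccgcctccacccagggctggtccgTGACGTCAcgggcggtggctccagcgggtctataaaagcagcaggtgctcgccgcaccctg
Errfi1: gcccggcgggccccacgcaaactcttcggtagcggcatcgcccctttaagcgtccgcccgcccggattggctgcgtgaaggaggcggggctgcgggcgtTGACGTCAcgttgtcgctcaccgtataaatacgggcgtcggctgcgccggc
A match describes the letters in this window only, and binding was not measured.

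The other genes of the pathway were read from 5 lists of 88 genes, of which 76 passed the filter. Of these 76, 9 were higher, 9 were lower and 58 did not pass (23.7% called, against 21.2% of all tested genes), with a median log2 fold change of -0.03. Without the library labelled RhoB-/- replicate 5, 4 were called higher (Eps8, Ksr1, Src and Sh3kbp1) and 7 lower, with Nras, Crk, Cblc, Hgs, Epha2, Cblb and Etv5 no longer called. Calls were lost over all 12870 tested genes too, from 995 higher and 1734 lower to 728 higher and 1092 lower. The balance within the lists depended on scaling, with 17 higher and 7 lower in centred libraries and 9 higher and 15 lower without mitochondrial genes.
Among the 7 other receptors and ligands, 1 passed the filter, Egf itself, the founding ligand of the family. Egf had 2.39, 2.95, 2.45, 3.09 and 2.02 TPM in WT and 0.68, 0.96, 1.04, 0.95 and 1.12 TPM in RhoB-/- replicates 1 to 5. Every RhoB-/- library was below every WT library, and the log2 fold change was -0.87 (standard error 0.15, adjusted p = 0.00221, limma). Among the tested ligands, Egf was thus called lower and Ereg and Tgfa higher, with Egf at a level below theirs in RhoB-/- mice. Epgn had 0.04 to 0.19 TPM in WT and 0.18 to 1.86 TPM in RhoB-/- libraries (exact permutation test, two-sided, unadjusted p = 0.0159). Nrg4, a neuregulin that binds Erbb4, had 0.64 to 1.53 TPM in WT and 0.42 to 0.79 TPM in RhoB-/- libraries (exact permutation test, two-sided, unadjusted p = 0.0238). Neither gene was called in the fit without the filter (adjusted p = 0.194 for Epgn and 0.0984 for Nrg4, limma). The receptor Erbb4 was at 0 to 0.01 TPM and Nrg1 at 0 to 0.18 TPM in all 10 libraries.

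Of the 9 tested genes of ligand shedding, 1 was lower and 0 were higher (11.1% called, against 21.2% of all tested genes). Timp3, a secreted inhibitor of ADAM17 and other metalloproteinases, had 4.01, 6.43, 4.50, 6.67 and 7.28 TPM in WT and 0.44, 1.05, 1.38, 0.90 and 1.32 TPM in RhoB-/- replicates 1 to 5. Of the 76 genes it had the largest change, -1.74 on the log2 scale with no overlap (standard error 0.19, adjusted p = 9.47e-05, limma). Stromal cells are a known source of Timp3. The sum of 6 fibroblast markers, mostly Dcn, was 2.98 to 4.04 TPM in WT and 5.72 to 35.1 TPM in RhoB-/- libraries, with 1 of 2 tested called higher (Dcn), 0 called lower and Pdgfra at 0 to 0.06 TPM. The sum of 4 smooth muscle markers was 0.51 to 4.50 TPM in WT and 0.22 to 2.28 TPM in RhoB-/- libraries, with 0 of 1 tested called. The part of these cells in the Timp3 value was not tested. The proteases themselves did not pass. The log2 fold change was 0.14 for Adam17 (adjusted p = 0.424) and 0.29 for Adam10 (adjusted p = 0.116, limma). Rhbdf1 and Rhbdf2, the iRhoms that carry ADAM17 to the cell surface, had 0.42 (adjusted p = 0.0942) and -0.03 (adjusted p = 0.859, limma).

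Of the 28 adaptors and members of the Ras-ERK cascade, 5 were higher, 0 were lower and 23 did not pass. The share called was 17.9%, against 21.2% of all tested genes in either direction. All 5 calls were higher, and 7.73% of all tested genes were called higher. Eps8, a substrate of the EGF receptor that acts on actin, had 31.3 to 47.3 TPM in WT (median 43.1) and 70.3 to 141.6 TPM in RhoB-/- libraries (median 78.9), without overlap, and rose by 1.12 on the log2 scale (adjusted p = 0.00254, limma). Eps8 is also a component of microvilli. Ksr1, a scaffold of the ERK cascade, rose by 0.88 on the log2 scale (adjusted p = 0.00469), and Src, a kinase downstream of the receptor, by 0.45 (adjusted p = 0.0128, limma). Eps8 and Ksr1 were called in each of 19 alternative fits and Src in 18 of 19. The other calls were the GTPase gene Nras and the adaptor gene Crk.

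Of the 25 tested genes of receptor endocytosis and inhibition, 3 were higher, 3 were lower and 19 did not pass. The share called was 24.0%, against 21.2% of all tested genes. Sh3kbp1, the adaptor that links Cbl to the endocytic machinery, had 3.58 to 4.96 TPM in WT and 7.57 to 14.4 TPM in RhoB-/- libraries (log2 fold change 1.18, adjusted p = 4.90e-04, limma). Cblc, a ubiquitin ligase of epithelia, and Hgs, a sorting protein of endosomes, had smaller rises of 0.42 and 0.30 (adjusted p = 0.0455 and 0.0493, limma), and each was called in 6 of 19 alternative fits. Lrig3, a relative of Lrig1, fell like it. Its TPM was 22.8 to 37.2 in WT and 14.4 to 21.4 in RhoB-/- libraries, without overlap, and its log2 fold change was -0.91 (adjusted p = 0.00194, limma). Spry1, a Sprouty inhibitor of Ras signalling, fell by 0.91 on the log2 scale (adjusted p = 0.00896, limma). The ubiquitin ligase gene Cblb fell by 0.39 (adjusted p = 0.0403, limma) and was called in 6 of 18 alternative fits.

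Of the 13 ERK target genes, 1 was higher, 4 were lower and 8 did not pass (38.5% called, against 21.2% of all tested genes). Over all tested genes, 7.73% were called higher and 13.5% lower. Epha2, an ephrin receptor, had 15.0 to 28.8 TPM in WT and 20.5 to 56.4 TPM in RhoB-/- libraries (log2 fold change 0.91, adjusted p = 0.0319, limma), and its adjusted p was 0.0832 without the library labelled RhoB-/- replicate 5. The genes that fell were the transcription factor genes Etv4 and Etv5, the phosphatase gene Dusp4 and the ephrin receptor gene Epha4. Etv4 had 7.98 to 16.7 TPM in WT and 2.86 to 5.92 TPM in RhoB-/- libraries (log2 fold change -1.24, adjusted p = 0.00206, limma). Dusp4 had 3.78 to 8.31 and 2.12 to 3.41 TPM (log2 fold change -0.78, adjusted p = 0.0145, limma). Dusp4 was among the genes high in WT replicates 3 and 5, and without them the difference was -0.49 (adjusted p = 0.0524, limma). Epha4 had 2.26 to 3.17 and 0.99 to 1.66 TPM (log2 fold change -0.70, adjusted p = 0.008, limma). Etv5, at an adjusted p of 0.0497 (limma), was just inside the threshold and was called in 7 of 19 alternative fits. It had an adjusted p of 0.116 without the library labelled RhoB-/- replicate 5 and of 0.0756 with centred libraries (limma). Dusp6 (log2 fold change 0.34, adjusted p = 0.245), Fos (0.12, adjusted p = 0.778) and Egr1 (-0.01, adjusted p = 0.982, limma) did not pass. The list therefore did not move in one direction.

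**Figure D4:**
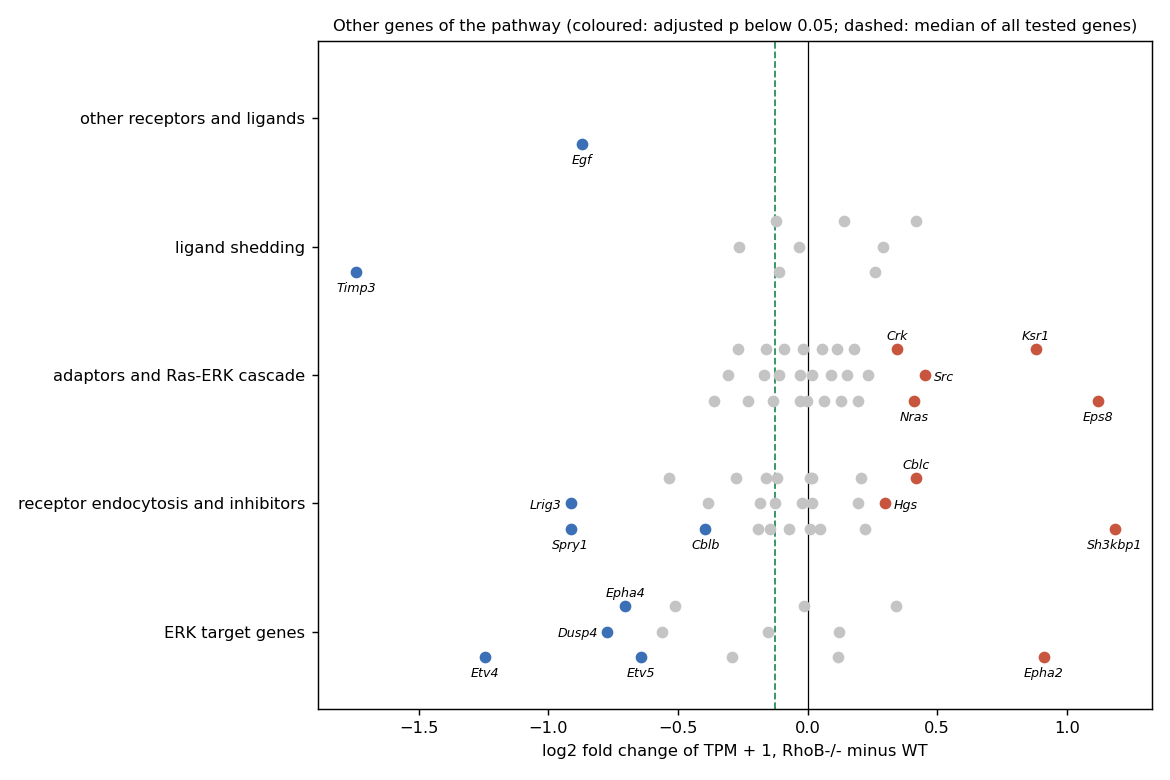
Log2 fold change of TPM + 1, RhoB-/- minus WT, of the 76 tested genes of 5 lists, 1 point per gene. Genes called higher are red and genes called lower are blue (adjusted p below 0.05), with a dashed line at the median of all tested genes. Egf, Timp3, Lrig3, Spry1 and Etv4 lie far to the left, and Eps8, Ksr1, Sh3kbp1 and Epha2 to the right.

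Some markers of immune cells, which also make EGF family ligands, were higher in RhoB-/- mice. All 3 tested T cell markers of 7 were higher in RhoB-/- mice, with sums of 4.59 to 7.96 TPM in WT and 12.7 to 17.4 TPM in RhoB-/- libraries. Of 10 myeloid markers, 2 of the 5 tested were higher (Cd68 and Tyrobp) and 3 did not pass. The myeloid sums overlapped, at 5.66 to 11.4 TPM in WT and 8.16 to 27.0 TPM in RhoB-/- libraries. Over all tested genes, 7.73% were called higher. The defining macrophage markers Adgre1 (0 to 0.06 TPM in WT and 0.02 to 2.14 TPM in RhoB-/- libraries) and Csf1r (0.03 to 0.39 and 0.25 to 0.83 TPM) were low in WT libraries, and the highest Adgre1 value was in the library labelled RhoB-/- replicate 5. None of the 6 B cell and plasma cell markers passed the filter, with sums of 0.18 to 1.01 and 0.99 to 14.1 TPM. The highest T cell sum was in RhoB-/- replicate 1. The highest myeloid, B cell and fibroblast sums were in the library labelled RhoB-/- replicate 5. That library also had the highest epithelial and surface colonocyte sums, and the highest Ereg, Tgfa, Areg, Erbb2 and Erbb3. The part of immune cells and fibroblasts in the values of Ereg and Tgfa was not tested. Without that library Ereg was still called (adjusted p = 0.0269, limma) and Tgfa was not (adjusted p = 0.0682, limma).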

How the data were processed

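Colon IEC libraries came from 5 WT and 5 RhoB-/- mice, 1 per mouse, grouped by the sample labels. Per the methods, the authors used SeqPrep and Sickle for trimming, HISAT2 for alignment, StringTie for assembly and RSEM for gene levels, and the submitters' processing notes name GRCm38.p6. The deposited values are TPM, rounded to 2 decimals. Tool versions and the annotation release were not given in the sources used here. TPM is relative, so a gene that takes much of a library lowers the others, and depth is unknown. The test was limma 3.58.1 in R 4.3.3 (lmFit, eBayes with trend) on log2(TPM + 1) over the genes that averaged 1 TPM or more, called at a Benjamini-Hochberg adjusted p below 0.05. Fold changes are on this scale and understate those of low genes. Genes below the filter had a two-sided exact permutation test over the 10 libraries, without adjustment. The procedure was tested on simulated data. Gene positions are from GENCODE M21 (GRCm38).

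The members and lists were chosen with earlier results of these data known. Named genes were the 10 members, Rhob, up to 3 genes per list and direction with the lowest p among those called, and Erbb4, Egf, Epgn, Nrg1, Nrg4, Adam10, Adam17, Rhbdf1 and Rhbdf2. Others (Etv5, Nras, Crk, Dusp5, Dusp6, Fos, Egr1 and single markers) were named after their values were seen. Alternatives were a pseudocount of 0.1, no filter, a mean TPM of at least 5, quantile normalization, libraries centred on their median deviation, no mitochondrial genes, no trend, a replicate block, each library left out, and the paper's thresholds (unadjusted p below 0.05, more than 1.5-fold). Leaving out WT replicates 3 and 5 was added after seeing the data.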

Additional observations from a re-analysis of the deposited data

Results flagged for a closer look

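Of 66 groups of 5 values examined, 6 held a single value well separated from the rest, and about 3.3 would be so by chance (1 in 20). The targeted gene Rhob had 110.87 TPM in the library labelled RhoB-/- replicate 5. Nrg4 had 0.79 TPM in RhoB-/- replicate 3, Src 41.5 TPM in WT replicate 2 and Cblb 2.65 TPM in RhoB-/- replicate 3. Erbb4 at 0.01 TPM in WT replicate 2 and Nrg1 at 0.18 TPM in WT replicate 5 are values beside near-zero ones. No member of the family held such a value. WT replicates 3 and 5, which lie together for Areg, Hbegf and Errfi1, are 2 libraries, and only single values were examined.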

How the results depend on the processing

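No member of the family changed direction under any alternative. Lrig1 and Rhob kept their calls in each of 19 alternatives and Ereg in each of the 18 that tested it. Ereg and Btc are below the filter of a mean TPM of at least 5. The number of members called higher (2) was 1 without the filter, at a mean TPM of at least 5, with the replicate block and by the paper's thresholds, 4 with centred libraries and without WT replicates 3 and 5, and 1 to 2 with each library left out. The number called lower was 1 throughout. Over the pathway lists, the number called higher (9) was 5 without the filter and with the block, 17 with centred libraries, 4 without WT replicates 3 and 5, and 4 to 9 with each library left out (4 or 5 without WT replicate 1, 3 or 4 or RhoB-/- replicate 1, 4 or 5). The number called lower (9) was 4 at a mean TPM of at least 5, 15 without mitochondrial genes, and 7 to 10 with each library left out. Over all genes, 1587 were higher with quantile normalization and 2010 with centred libraries, against 995. Those lower (1734) were 1104 at a mean TPM of at least 5, 3648 without mitochondrial genes, 1059 with the replicate block, 1072 by the paper's thresholds, and 860 to 2929 with each library left out (716 to 1158 higher). The libraries that moved the lower count by over 1.5 times were WT replicates 2 (971) and 4 (860) and RhoB-/- replicates 1 (955), 3 (2929) and 5 (1092). The cause of these moves was not tested, except that a stricter filter tests fewer genes. Same-numbered WT and RhoB-/- libraries are different mice, and their deviations correlated by -0.09 to 0.07, so the numbers do not pair them. With the block, Tgfa had an adjusted p of 0.0811 (limma). Depth is unknown, so low genes such as Btc, Egf and Epgn carry an unknown counting error.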
